A study of Auxenochlorella pyrenoidosa with 18 samples.

Results

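Long introns within the coding sequence were described in the predicted gene models of Auxenochlorella pyrenoidosa, a unicellular green alga (strain FACHB-9). They were chosen by length alone: in each gene model the transcript with the longest coding sequence was taken, and gaps of 1000 bases or more between neighbouring coding segments were kept. The rule found 1358 long introns among 85135 coding introns, a share of 1.60% (95% Wilson interval 1.51 to 1.68%). The other 83777 coding introns, all under 1000 bases, served for comparison. The long introns lay in 1247 of the 10143 gene models that have a coding intron (12.3%), on 97 of the 1210 scaffolds that carry such introns.

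The series itself followed the alga through the switch from glucose-fed to light-driven growth, with 18 RNA libraries of whole cells in 6 groups of 3. The groups are cells in light (phototrophy) at 2, 8 and 24 h and cells grown on glucose and urea (heterotrophy) at 0, 24 and 72 h, all of the same strain. The gene models belong to the series as a whole and not to any library, so the 6 groups are not compared here and the depth of the libraries is unknown here. The models were written by AUGUSTUS, a gene finder that reads genomic DNA and gives each intron a score. All 85135 coding introns had a matching scored intron line. No genome sequence was used, so splice sites and the bases inside the introns were not analysed here.

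An intron is transcribed with its gene and then cut out by the spliceosome, which joins the coding segments on either side. An intron in phase 0 lies between codons, one in phase 1 lies after the first base of a codon, and one in phase 2 lies before its last base. In many animals and plants the first intron of a gene tends to be the longest, and long first introns there often hold regulatory sequence. Here introns are counted within the coding sequence only, so a first intron can follow introns that lie upstream of the start codon.

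Lengths fell off steadily above the threshold. The shortest long intron measured 1000 bases, the median 1442 bases and the longest 6445 bases, with a mean of 1718 ± 786 bases (SD, n = 1358 introns). The middle of the distribution, from the 25th to the 75th percentile, ran from 1159 to 2012 bases, and the 95th percentile was 3357 bases. Although they were 1.60% of coding introns, they held 2332546 of the 21963094 bases in coding introns (10.6%). Of the 1358, 481 measured 1000 to 1249 bases, 254 measured 1250 to 1499, 277 measured 1500 to 1999, 236 measured 2000 to 2999 and 110 measured 3000 or more. The plus strand carried 685 of them. No long intron was overlapped by another gene model. The same count was not made for shorter introns, so this says nothing particular about long ones.

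**Figure D1:**
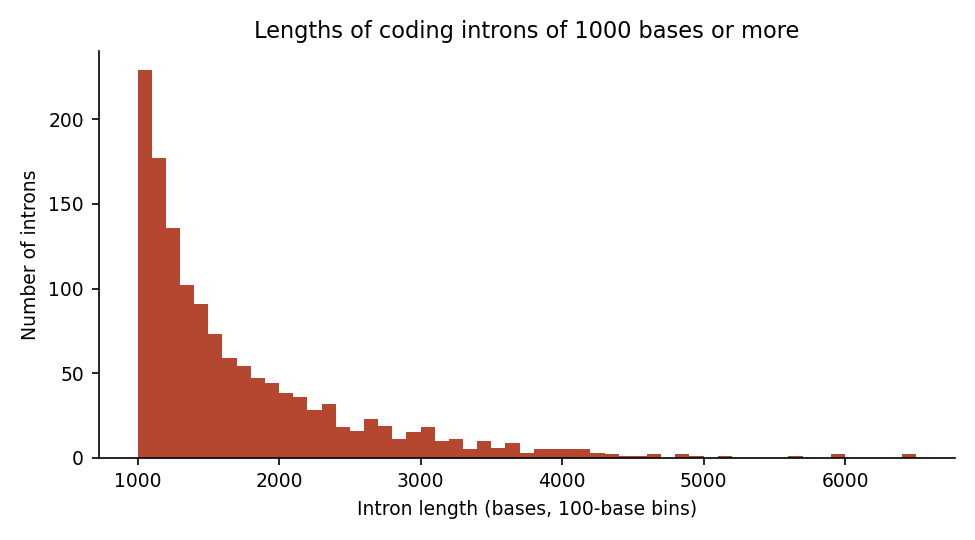
Number of coding introns (y axis) by intron length in bins of 100 bases (x axis, bases) for the 1358 introns of 1000 bases or more. Counts decline from the threshold on, the median is 1442 bases and the longest intron is 6445 bases.

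On both sides of the threshold the phase and the score were close. The 116 introns of 1000 to 1049 bases, just inside it, were in phase 0 in 54.3% of cases and had a mean score of 0.724. The 137 introns of 950 to 999 bases, just outside, were in phase 0 in 54.0% of cases and had a mean score of 0.748. In gene models with 3 coding introns or more, the first coding intron of the gene made up 0 of 113 inside (which allows a share of up to 2.65%) and 8 of 137 outside (5.84%).

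AUGUSTUS gave long introns lower scores than shorter ones. The mean score was 0.748 for long introns and 0.955 for introns under 1000 bases, a difference of -0.21 (95% interval -0.22 to -0.19; scaffold-clustered least-squares fit over all coding introns, n = 1358 long and 83777 shorter introns, adjusted p = 1.73e-127). The median was 0.85 for long introns and 1 for shorter introns. A score of at least 0.95 was held by 534 long introns (39.3%, 95% Wilson interval 36.8 to 41.9%), against 84.3% of shorter introns (84.0 to 84.5%). A score under 0.5 was held by 276 long introns (20.3%), against 2.50% of shorter introns. The adjacent coding segments differed in the same direction: both had a score of at least 0.95 in 39.1% of long introns and in 71.7% of shorter introns. Among introns with such flanks, the difference in mean score was much smaller, with 0.976 for long and 1.00 for shorter introns (-0.025, n = 531 and 60108, adjusted p = 2.71e-05, scaffold-clustered fit). A score of at least 0.95 was then held by 92.7% of long and 99.4% of shorter introns. In g57, 1 long intron and both of its flanks scored 0.85, while its other long intron scored 0.93 between flanks of 1 and 0.95. How often an intron shares its score with a flanking segment was not counted. Choosing by flank scores may also limit the intron scores, and how far this set the smaller difference was not tested. The file does not define the score, and it is not bounded by 1: 3 long introns scored above 1, up to 2. Of all 85135 coding introns, 274 scored above 1. The fits count 1210 scaffolds, most of them small, and on the 60 scaffolds of at least 100 kb alone the main score difference was the same, -0.21, with a larger adjusted p of 1.11e-33 (n = 1319 and 77279).

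Most of the decline in score with length lay below 1000 bases. A score of at least 0.95 was held by 89.2% of introns of 200 to 299 bases, 81.2% of those of 300 to 499 bases and 48.9% of those of 500 to 999 bases. Among long introns the share was 38.7% at 1000 to 1249 bases, 37.8% at 1250 to 1499, 40.4% at 1500 to 1999, 43.6% at 2000 to 2999 and 33.6% at 3000 bases or more. The 95% Wilson intervals of these 5 classes overlapped. The shortest introns, of 41 to 119 bases, also had a lowered share of 60.9%.

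Long introns lay between codons more often than shorter ones. Phase 0 held 782 of the 1358 long introns (57.6%, 95% Wilson interval 54.9 to 60.2%), against 49.6% of shorter introns (49.2 to 49.9%). The difference was 8.03 percentage points (95% interval 4.92 to 11.1; scaffold-clustered fit, n = 1358 long and 83777 shorter introns, adjusted p = 1.18e-06). Phase 1 held 298 long introns (21.9%) and 28.1% of shorter introns, a difference of -6.13 points (95% interval -8.73 to -3.53, n = 1358 and 83777, adjusted p = 8.10e-06 in the same fit). Phase 2 held 278 long introns (20.5%) and 22.4% of shorter introns, and this difference of -1.90 points did not pass the test (95% interval -4.07 to 0.263, n = 1358 and 83777, adjusted p = 0.114).

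By length class, the phase 0 share was lower in every class of shorter introns than in any class of long ones. It was 46.3% at 41 to 119 bases, 48.3% at 120 to 199, 50.4% at 200 to 299, 51.8% at 300 to 499 and 51.2% at 500 to 999 bases. Among long introns it was 56.8% at 1000 to 1249 bases, 59.1% at 1250 to 1499, 56.0% at 1500 to 1999, 56.8% at 2000 to 2999 and 63.6% at 3000 bases or more (95% Wilson interval 54.3 to 72.0%, n = 110). With the threshold at 2000 bases, phase 1 held 26.0% of the introns at or above it and 28.0% of those below it, and the difference of -1.97 points no longer passed the test (n = 346 and 84789, adjusted p = 0.540, scaffold-clustered fit). Phase 2 held 15.0% of the introns at or above 2000 bases and 22.4% of those below, a difference of -7.34 points (n = 346 and 84789, adjusted p = 6.47e-05, same fit).

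**Figure D2:**
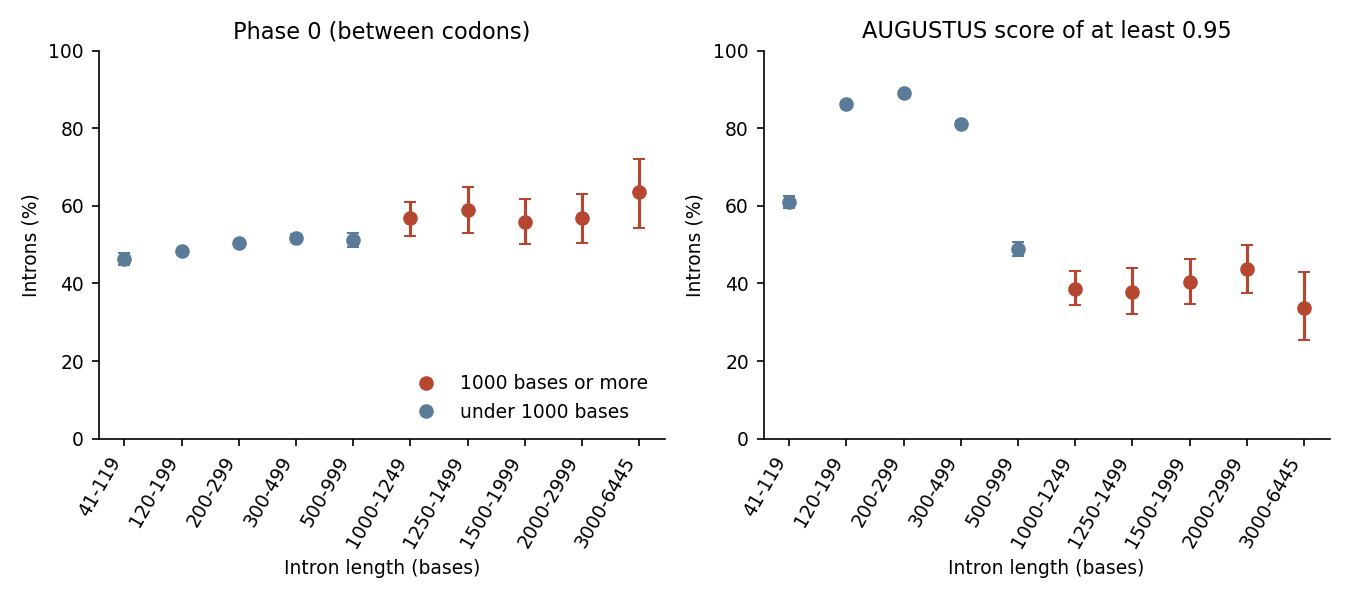
Share of coding introns in phase 0 (left, %) and with an AUGUSTUS score of at least 0.95 (right, %) by intron length (x axis, bases); points are shares, bars 95% Wilson intervals. Phase 0 is above 55% in all 5 classes of 1000 bases or more and below 52% in the 5 shorter classes, and the high-score share is below 45% in all 5 long classes.

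The phase difference was present at high scores too. Among introns with a score of at least 0.95, phase 0 held 312 of 534 long introns (58.4%) and 49.0% of shorter introns, a difference of 9.41 points (n = 534 and 70615, adjusted p = 0.000104, scaffold-clustered fit). At scores of 0.5 to under 0.95 it held 58.6% of 548 long introns and 53.4% of shorter introns, and at scores under 0.5 it held 54.0% of 276 long introns and 47.4% of shorter introns. The difference at scores of at least 0.95 minus that under 0.95 was 4.79 points (95% interval -0.616 to 10.2). It did not pass the test (n = 85135 introns, adjusted p = 0.124, interaction term in the same kind of fit). This test was among 3 added after the values were seen and was adjusted over those 3. Within genes that hold both classes, the phase 0 difference was 7.40 points (n = 1358 long introns, adjusted p = 4.46e-05 with gene means subtracted). Internal introns alone, which leave out the first and the last coding intron of each gene, gave 57.2% for long and 49.6% for shorter introns.

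Scaffolds varied widely in this measure. On the 24 scaffolds with at least 1000 coding introns, which carry 974 of the long introns, the phase 0 share of long introns ran from 12.5% to 73.7% with a median of 59.6%. The share of shorter introns on the same scaffolds ran from 45.8% to 52.8% with a median of 49.3%. The long introns had the higher share on 19 of the 24. The lowest value belonged to scaffold00047, with only 8 long introns. On scaffold00092, with 32, the share was 31.2% for long introns and 46.7% for shorter introns. Counts per scaffold are small, and the spread between scaffolds enters the clustered intervals.

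**Figure D3:**
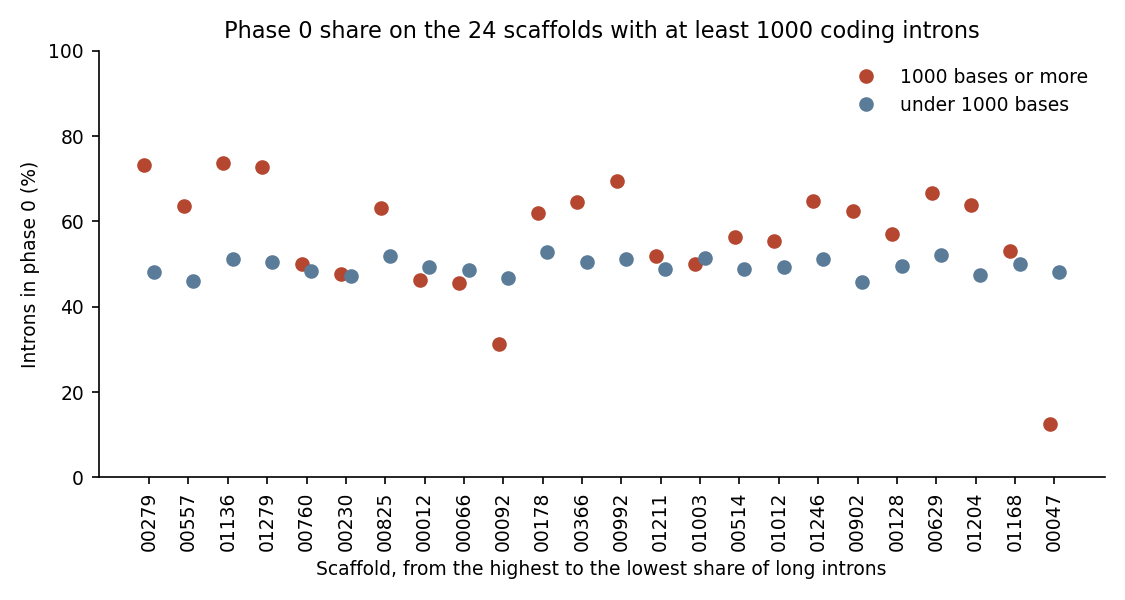
Share of introns in phase 0 (y axis, %) on each of the 24 scaffolds with at least 1000 coding introns, ordered from the highest to the lowest share of long introns; red points are introns of 1000 bases or more, blue points shorter introns. Red lies above blue on 19 scaffolds, and red spreads from 12.5% to 73.7% while blue stays between 45.8% and 52.8%.

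Long introns were scarce at the start of the coding sequence. Among gene models with 3 coding introns or more, 28 of 1345 long introns were the first coding intron of their gene (2.08%, 95% Wilson interval 1.44 to 2.99%), against 8845 of 81705 shorter introns (10.8%). If every position of these genes were equally likely, 9.33% of the long and 10.7% of the shorter introns would be first. After this expected share was subtracted, long introns were first less often by -7.36 percentage points (95% interval -8.45 to -6.28; scaffold-clustered fit, n = 1345 and 81705, adjusted p = 6.70e-37). On all 24 large scaffolds the share of first introns was lower among long than among shorter introns, and on 12 of them no long intron was first. The last position held 130 long introns (9.67%) and 10.7% of shorter introns, and the difference after the same subtraction, 0.345 points, did not pass the test (95% interval -1.18 to 1.87, n = 1345 and 81705, adjusted p = 0.657).

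Position by position, the share of long introns was as follows. In the 4163 genes with at least 8 coding introns, 16 first introns were long (0.384%, 95% Wilson interval 0.237 to 0.623%). The share was 1.03% at the second intron (0.768 to 1.39%), 1.30% at the third (0.996 to 1.69%) and 2.14% at the fourth (1.74 to 2.62%). It was 2.13% in the middle of the gene (1.98 to 2.30%, n = 31129), 2.09% at the third last, 1.51% at the second last and 1.59% at the last intron. Differences between these positions were not tested. The values in the 3996 complete models among these were close, with 0.40% at the first and 2.14% in the middle. Measured along the coding sequence, where 0 is its start and 1 its end, long introns lay at a mean position of 0.542 and shorter introns at 0.489. The difference of 0.0528 had a 95% interval of 0.0393 to 0.0663 (scaffold-clustered fit, n = 1358 and 83777, adjusted p = 8.51e-14). Among internal introns alone it was 0.0251, with means of 0.518 for long and 0.493 for shorter introns (n = 1187 and 64117, adjusted p = 0.000519). With the threshold at 2000 bases it was 0.0839.

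**Figure D4:**
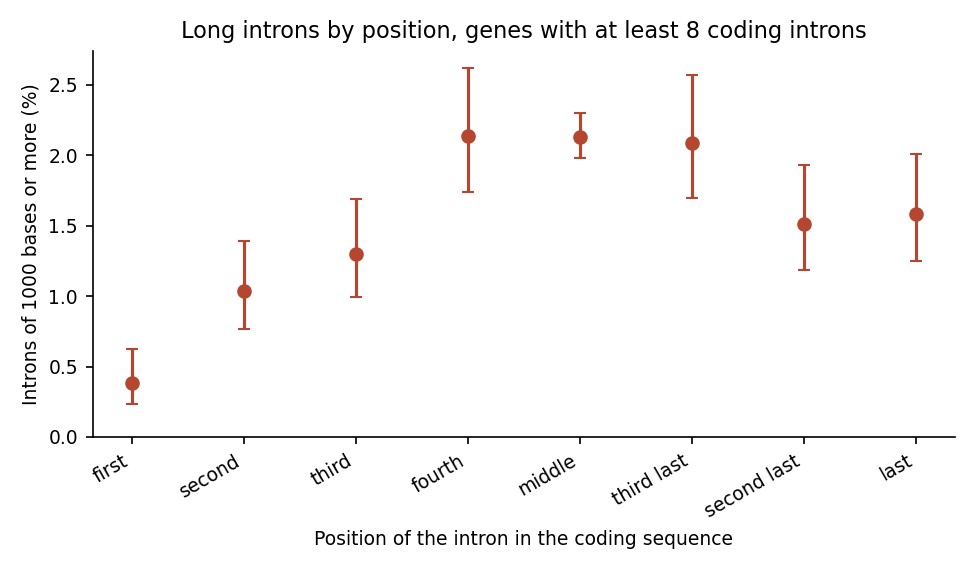
Share of introns that measure 1000 bases or more (y axis, %) by position in the coding sequence (x axis) in the 4163 genes with at least 8 coding introns; bars are 95% Wilson intervals. The share climbs from 0.384% at the first intron to 2.14% at the fourth, stays near that level in the middle and is 1.59% at the last.

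Scores also moved with position among shorter introns. Among introns with a score of at least 0.95, 2.45% of long and 9.66% of shorter introns were first. Among introns with a score under 0.5, 2.55% of long and 17.7% of shorter introns were first. With the score as a covariate, the difference in the share of first introns was -10.2 points (n = 1345 and 81705, adjusted p = 8.78e-50, scaffold-clustered fit).

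Length class was distributed differently outside the coding sequence. Introns in the 5' untranslated part are those upstream of the start codon, which a predicted model can hold before its first coding intron. Of coding introns 1.60% were long, against 312 of 3196 introns in the 5' untranslated part (9.76%, 95% Wilson interval 8.78 to 10.8%). The difference was -8.17 percentage points (95% interval -9.19 to -7.14; scaffold-clustered fit, n = 85135 and 3196, adjusted p = 5.57e-50 over 3 tests added after the values were seen). In the 3' untranslated part 88 of 574 introns were long (15.3%). The median lengths did not follow this order: 209 bases for coding introns, 190 bases in the 5' and 198.5 bases in the 3' untranslated part. A 5' untranslated intron was present in 24.9% of genes with a long coding intron (95% Wilson interval 22.5 to 27.3%) and in 22.3% of the other genes with coding introns (21.4 to 23.2%).

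Long introns of one gene seldom stood next to each other. One long intron was present in 1146 genes, 2 in 92 genes, 3 in 8 genes and 4 in 1 gene. The intron after a long one was itself long in 7 of 1222 cases (0.573%, 95% Wilson interval 0.278 to 1.18%), against 1316 of 73770 cases after a shorter one (1.78%, 1.69 to 1.88%). The difference was -1.21 percentage points (95% interval -1.68 to -0.737; scaffold-clustered fit, n = 1222 and 73770, adjusted p = 1.30e-06). At a separation of 2 introns the share was 0.463% after a long intron and 1.91% after a shorter one. At separations of 3, 4, 5 and 6 it was 1.74%, 0.862%, 1.29% and 1.48% after a long intron, against 1.97%, 1.99%, 1.98% and 2.05% after a shorter one. Separations above 1 were not tested.

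**Figure D5:**
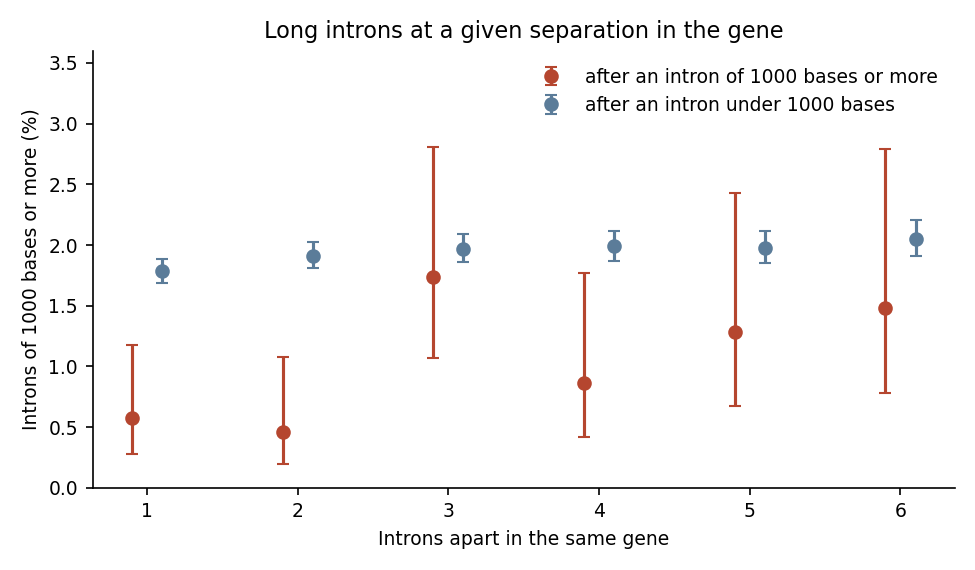
Share of introns of 1000 bases or more (y axis, %) at 1 to 6 introns (x axis) after an intron of 1000 bases or more (red) or after one under 1000 bases (blue); bars are 95% Wilson intervals. Red is 0.573% and 0.463% at separations of 1 and 2, where blue is 1.78% and 1.91%, and the intervals overlap at 3, 5 and 6.

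The 7 neighbouring pairs enclosed coding segments of 30 to 361 bases. The smallest, of 30 bases, lay in g2174 on scaffold00230 between introns of 1109 and 1015 bases with scores of 0.66 and 0.38. In g111 on scaffold00012 an intron of 3150 bases with a score of 1 was followed by one of 1038 bases with a score of 0.26. In 5 of the 7 pairs at least 1 of the introns had a score under 0.5. Among all long introns 20.3% scored under 0.5, which is a share per intron and not per pair. Whether the 7 pairs scored lower than other long introns was not tested.

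The lengths of the coding segments beside long introns did not pass the test for a difference. The internal segment before a long intron had a median of 113 bases, against 107 bases before a shorter one. On the log2 scale the ratio was 1.01 (95% interval 0.977 to 1.04, n = 1323 and 73669, adjusted p = 0.580, scaffold-clustered fit). The internal segment after a long intron also had a median of 113 bases, against 107 bases after a shorter one, with a ratio of 1.03 (95% interval 0.995 to 1.07, n = 1222 and 73770, adjusted p = 0.114). A length that is a multiple of 3 would leave the frame of the following coding segments unchanged if the intron were retained. Stop codons within the introns could not be checked without sequence. Such a length was found in 34.8% of long and 33.1% of shorter introns, a difference of 1.73 points that did not pass the test (95% interval -1.16 to 4.61, n = 1358 and 83777, adjusted p = 0.287).

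Genes with a long intron, called host genes here, were larger than the others. They had a median of 13 coding introns, against 6 in the other genes with coding introns, and a median coding length of 1890 bases, against 975 bases in those. A gene with more introns has more chances to hold a long one, so the host genes were compared at equal intron number, by a covariate. Their coding sequence was then 1.11 times as long (95% interval 1.09 to 1.13; scaffold-clustered fit n = 1247 host and 8896 other genes, adjusted p = 5.57e-22), or 0.15 log2 units. For hosts of a long intron with a score of at least 0.95 this fell to 0.07 log2 units, and with the threshold at 2000 bases to 0.08. In the fit at high scores only the hosts were filtered by score, and the other genes were the same 8896. Of the 455 models with at least 25 exons, 203 were hosts (44.6%), against 12.3% of all gene models with a coding intron. These models hold many introns each, and the share expected from intron number alone was not computed.

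The remaining introns of host genes were slightly longer as well. The median of a gene's introns under 1000 bases was 217 bases over host genes (25th to 75th percentile 192 to 249) and 210.5 bases over the other genes (183 to 245). At equal intron number the ratio was 1.05 (95% interval 1.04 to 1.06; scaffold-clustered fit, n = 1234 host and 8441 other genes, adjusted p = 2.77e-15), or 0.07 log2 units, against 0.04 without the covariate. The range between the quartiles of host genes overlapped that of the other genes over most of its width.

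Host genes were complete, with a start and a stop codon, in 97.0% of cases and the other genes in 85.3%. At equal intron number the difference was 3.77 points (95% interval 1.90 to 5.64, n = 1247 and 8896, adjusted p = 0.000136, scaffold-clustered fit). On scaffolds with at least 100 kb between the outermost gene models the shares were 99.6% for host genes and 99.4% for the others, with a difference of -0.00442 points (n = 1208 and 7475, adjusted p = 0.982). More than 1 transcript was predicted for 38 host genes (3.05%) and for 124 of the other genes (1.39%). At equal intron number this was a difference of 0.892 points (95% interval 0.0297 to 1.75), which did not pass after adjustment (n = 1247 and 8896, adjusted p = 0.0659, same fit). The size depended on the threshold: at 800 bases it was 0.229 points (n = 1775 and 8368, adjusted p = 0.599), and without introns over 3000 bases it was 0.688 points (n = 1137 and 8896, adjusted p = 0.214). It passed with the threshold at 2000 bases, where 4.75% of the host genes and 1.49% of the others had more than 1 transcript (2.53 points at equal intron number, n = 337 and 9806, adjusted p = 0.00657). Of the 44 long introns in the 38 hosts, 38 were present as the same coding intron in every transcript of the gene and 6 were not. An intron outside the coding range of another transcript counts as not present. The same count was not made for shorter introns.

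The spacing to the next gene did not pass the test for a difference. On scaffolds with at least 5 genes the median distance to the nearest neighbouring gene was 227.5 bases for host genes and 246 bases for the others. On the log2(distance + 1) scale and at equal intron number the ratio was 0.948 (95% interval 0.863 to 1.04, n = 1214 and 7525, adjusted p = 0.287, scaffold-clustered fit). For hosts of a long intron with a score of at least 0.95 it was lower by -0.20 log2 units (n = 508 and 7525, adjusted p = 0.0161, same fit). Only the hosts were filtered by score there, and the other genes were the same 7525, so score and host status were not separated. The next gene on the scaffold was itself a host after 14.5% of host genes and after 13.4% of the others. At equal intron number the difference was 0.765 points (95% interval -1.62 to 3.15, n = 1212 and 7721, adjusted p = 0.529, scaffold-clustered fit). This test was also among the 3 added after the values were seen and adjusted over those 3.

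The share of long introns varied among the 24 large scaffolds, with a median of 1.58% of coding introns. The highest shares were those of scaffold00279 (45 of 1455 introns, 3.09%, 95% Wilson interval 2.32 to 4.11%), scaffold00557 (44 of 1886, 2.33%) and scaffold01136 (38 of 1707, 2.23%). The lowest were those of scaffold00047 (8 of 1160, 0.690%, 0.350 to 1.35%), scaffold01168 (32 of 2792, 1.15%) and scaffold01204 (36 of 2793, 1.29%). The intervals of the highest and the lowest scaffold did not overlap, but both were picked as the extremes of the same 24 shares. Differences in share between scaffolds were not tested. The median length of shorter introns was 226.5, 231 and 226 bases on the 3 scaffolds with the highest shares and 211, 188.5 and 200 bases on the 3 with the lowest. The largest median of the 24, 245 bases, was that of scaffold00825, at a share of 1.81%. A relation between share and median length over the 24 scaffolds was not tested. Scaffold00629 held 45 long introns among 3472 (1.30%).

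Of the 10 longest introns, none was the first or the last coding intron of its gene. They were found at relative positions of 0.262 to 0.651 along the coding sequence, and 7 were in phase 0, 3 in phase 1 and none in phase 2. Of the 10, 5 scored at least 0.99 and the other 5 below 0.7. The longest, in g1532, was intron 11 of 17, in phase 1, between coding segments of 42 and 86 bases that both scored 0.67. That of g9269, 6405 bases and the longest in phase 0, was intron 5 of 8. In g8016 intron 10 of 16 followed a coding segment of 963 bases and scored 1, as did both of its flanking segments. In g2985 it was intron 11 of 16 and in g3779 intron 4 of 7, both in phase 0.

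The next 5 by length were as follows. Model g3042 held an intron of 5193 bases (scaffold00366, bases 1570400 to 1575592, minus strand) in phase 0 with a score of 1. Model g234 held one of 4909 bases (scaffold00012, bases 1176954 to 1181862, plus strand) in phase 1 with a score of 0.52. The scores of these long introns were thus far apart. Model g3669 held one of 4817 bases (scaffold00479, bases 106604 to 111420, minus strand) with a score of 0.31, and g7013 one of 4813 bases (scaffold01003, bases 191478 to 196290, minus strand) with a score of 0.52, both in phase 0. Model g4900 held one of 4665 bases (scaffold00629, bases 1888806 to 1893470, minus strand) in phase 1, intron 9 of 29, with a score of 1. The longest intron in phase 2 was that of g269, with 4210 bases (scaffold00012, bases 1413682 to 1417891, plus strand) and a score of 1.

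Among gene models with 3 coding introns or more, the longest of the 28 long first introns was in g9190 (4106 bases, scaffold01211, bases 587496 to 591601, plus strand). It followed a first coding segment of 1115 bases, so it lay at 0.457 of the coding sequence, far from the start codon. The next were those of g1555 (2489 bases, scaffold00128, bases 1073083 to 1075571, plus strand, score 0.90) and g1042 (2117 bases, scaffold00068, bases 250908 to 253024, minus strand, score 0.39). In the same models the longest last introns were found in g2938 (4334 bases, scaffold00366, bases 935657 to 939990, plus strand), g2376 (4237 bases, scaffold00252, bases 285201 to 289437, plus strand) and g4516 (4196 bases, scaffold00600, bases 270823 to 275018, minus strand). All 3 were in phase 0, with scores of 0.92, 0.36 and 1.

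Model g3245 held the most long introns (scaffold00366, bases 2652708 to 2673381, minus strand). Its 4, of 1156, 1057, 2327 and 1011 bases, were introns 4, 13, 27 and 38 of 52, and the last of them scored 0.15 while the others scored 0.87 to 0.99. Model g236 (scaffold00012, bases 1190455 to 1208498, minus strand) held introns of 3264, 1627 and 2318 bases, 1 in each phase, which together made 7209 bases of a gene of 18044 bases. Model g781 (scaffold00064, bases 414386 to 428758, minus strand) held introns of 3979, 1433 and 1536 bases, at positions 8, 10 and 13 of 14. Model g725, on the same scaffold (bases 87426 to 103270, plus strand), held introns of 1752, 3693 and 1501 bases, all in phase 0. Model g5368 (scaffold00734, bases 691312 to 706676, plus strand) held introns of 1369, 2535 and 2086 bases, the last of which was also the last of its 24 introns. The other introns of these 5 genes had medians of 175.5 to 279 bases, and 10 of their 16 long introns were in phase 0. The lowest score, 0.02, belonged to 2 long introns, those of g3672 (3470 bases) and g10013 (1688 bases). A further 5 long introns scored 0.03, of which that of g5144 (3112 bases) was the longest.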

How the data were processed

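The deposited file is an annotation without a header. Per its source column, the gene models come from AUGUSTUS. For its version, settings, evidence and assembly, the label texts and the file say nothing. TopHat 1.3.3 and Cufflinks are listed in the submitters' processing notes, with no role stated. Scores of genes, coding segments and introns are those the authors deposited, without a description. Coordinates count from 1. No value per library entered.

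Phase was read from the coding segment after each intron. Of 17 tests, each was a least-squares fit over all coding introns or all genes with one, with a variance clustered on scaffolds, two-sided, and Benjamini-Hochberg adjustment over the 17; under an alternative, over those it allowed. The 3 tests added after the values were seen were adjusted over those 3. A call needs an adjusted p under 0.05. These fits allow for dependence within scaffolds, not for errors of assembly or prediction. Wilson intervals treat introns or genes as independent and cover counting error only. Gene comparisons carried log2 intron number as a covariate. Named models followed a rule on length, number, position and score, with exceptions. The 7 neighbouring pairs and scaffold00092 were named after their values were seen. Also named outside the rule were g57, scaffold00825, scaffold00629 and, except for g9269, the models in sets with equal flanking lengths. The length rule, lists and tests were chosen with earlier results of these data known. The code was tested on simulated introns. Python 3.11.15, NumPy 2.4.6, SciPy 1.17.1 and pandas 2.3.3 were used. The alternatives numbered 13, with 2 more chosen after seeing the data.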

Additional observations from a re-analysis of the deposited data

How the results depend on the processing

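Of 206 values of tested results under 15 alternative settings, 189 kept their direction and side of the threshold. Phase 0 differences ran from 7.19 to 9.64 points and first-position differences from -10.2 to -5.21 points, all past the test. With the threshold at 1500 bases (623 introns, against 1358), phase 2 passed at -3.43 points, genes with more than 1 transcript passed at 1.27 points, and the segment after turned to -0.026 log2 units. At 2000 bases (346 introns), phase 1 lost its call at -1.97 points, phase 2 passed at -7.34 points, more than 1 transcript passed at 2.53 points, and the segment after was at -0.0032. At 800 bases (2046 introns), the last position turned to -0.064 points. On scaffolds of at least 100 kb, completeness turned to -0.0044 points. With intron scores of at least 0.95, the segments before and after turned to -0.015 and -0.0072, and the distance passed at -0.20. For the distance, only the host genes were filtered by score. The segment before turned to -0.0041 within genes and -0.0073 with the score as a covariate; the segment after turned to -0.0046 with high-scoring flanks. More than 1 transcript passed at 1.10 points for internal introns and 1.65 without the covariate. The causes were not tested. Neighbouring long introns could not be fitted at 1500 bases, 2000 bases or high scores. There 0 of 558, 0 of 310 and 0 of 436 next introns were long, which allows shares of up to 0.538%, 0.968% and 0.688%. Of all 85135 coding introns, 623 and 346 reached 1500 and 2000 bases. At high scores 534 introns were long and 70615 shorter. Whether the zeros lie below these shares was not tested. Neighbouring long introns were also not fitted within genes, over all transcripts or with high-scoring flanks. No paired analysis was possible because no deposited value used here belongs to a single library. The depth of the libraries is unknown here.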

Other observations

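Some long introns in different genes were framed by coding segments of the same lengths. Of 1187 long introns with internal coding segments on both sides, 15 fell into 7 sets that shared the length of the segment before, the length of the segment after and the phase. In 1 set the models lay near each other on scaffold00366: g3414 (intron at bases 3495537 to 3497154) and g3417 (intron at bases 3514703 to 3515729) each had 3 coding introns, and in each the second was the long one, with 1618 and 1027 bases between segments of 85 and 141 bases. In another, g2577, g5086 and g7712 on 3 scaffolds had long introns of 1104, 1387 and 3440 bases between segments of 72 and 63 bases. The 6405-base intron of g9269 shared its flanks of 114 and 110 bases with an intron of 3129 bases in g6000. How often such sets arise among introns of any length was not tested.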
